A study of Rattus norvegicus with 9 samples.

Results

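The 10 genes described here belong to intracellular DNA sensing and to the enzymes around it, and they were followed through 9 poly(A) RNA libraries of rat nucleus pulposus cells. They are the sensor genes Cgas, Tlr9 and Aim2, the adaptor gene Sting1, the kinase genes Tbk1 and Ikbke, the transcription factor gene Irf3, the nuclease genes Trex1 and Dnase2, and Enpp3. The members were taken by exact symbol from the deposited count table, and all 10 of the 10 were found among its 22324 genes. Of these, 8 had enough counts for a test, and Tlr9 and Aim2 lay near the count floor.

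The cells were wild-type primary cells from the rat nucleus pulposus, the soft centre of the disc between vertebrae, grown with 10% serum. There were 3 groups of 3 libraries, titled NC, SEN and BNPMT. SEN cells received 200 nM doxorubicin, a DNA-damaging drug, for 24 h and then 6 days of drug-free culture, which the labels describe as inducing senescence. BNPMT was an intervention in these senescent cells, whose composition, dose and timing are not stated in the labels. Title and design text make NC the untreated control, although the doxorubicin protocol stands on all 9 samples. The labels do not say that replicates came from separate cultures, so p-values measure no more than library-to-library spread, possibly technical. The series title refers to mitochondrial outer membranes and to extracellular DNA, the question to which these genes relate.

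As background, double-stranded DNA in the cytosol is bound by the enzyme cGAS, which makes the messenger cGAMP, and cGAMP activates the membrane protein STING. STING recruits the kinases TBK1 and IKK-epsilon, and TBK1 phosphorylates IRF3, which then switches on type I interferon genes. TREX1 in the cytosol and DNASE2 in the lysosome destroy DNA before it is sensed, TLR9 reads DNA in endosomes, AIM2 starts the inflammasome, and ENPP3 is an ecto-enzyme that hydrolyses extracellular nucleotides, cGAMP among them.

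Promoter windows from RefSeq (build GRCr8, from 250 bases before to 50 bases after the gene's start) were found for 7 of the 10 members. The 4 printed here belong to the pair that was highest in SEN, Tbk1 and Enpp3, and to 2 of the 3 genes called highest in BNPMT, Sting1 and Trex1. Each runs 5′ to 3′ in the direction of the gene, and capitals mark CG dinucleotides. The Tbk1 window lies on the minus strand at chr7:58996308-58996607, the Enpp3 window on the plus strand at chr1:22382739-22383038, the Sting1 window on the minus strand at chr18:27612399-27612698 and the Trex1 window on the minus strand at chr8:118586333-118586632.
Tbk1: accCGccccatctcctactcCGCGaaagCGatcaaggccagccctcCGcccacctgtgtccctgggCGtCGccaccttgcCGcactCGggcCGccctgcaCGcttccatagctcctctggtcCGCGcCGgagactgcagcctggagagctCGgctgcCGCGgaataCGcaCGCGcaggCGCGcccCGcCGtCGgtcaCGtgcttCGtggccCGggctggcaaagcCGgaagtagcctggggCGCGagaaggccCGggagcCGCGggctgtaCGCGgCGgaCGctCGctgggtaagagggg
Enpp3: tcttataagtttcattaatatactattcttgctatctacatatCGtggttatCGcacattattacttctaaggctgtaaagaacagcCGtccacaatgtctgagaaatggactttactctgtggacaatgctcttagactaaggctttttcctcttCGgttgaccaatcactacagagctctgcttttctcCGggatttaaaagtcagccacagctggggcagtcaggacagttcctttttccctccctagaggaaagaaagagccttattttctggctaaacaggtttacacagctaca
Sting1: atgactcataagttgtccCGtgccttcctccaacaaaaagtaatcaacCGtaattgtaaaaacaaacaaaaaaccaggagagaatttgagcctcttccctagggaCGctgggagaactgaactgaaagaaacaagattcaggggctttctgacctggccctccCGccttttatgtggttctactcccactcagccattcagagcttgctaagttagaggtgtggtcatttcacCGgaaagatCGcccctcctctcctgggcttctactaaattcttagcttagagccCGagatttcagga
Trex1: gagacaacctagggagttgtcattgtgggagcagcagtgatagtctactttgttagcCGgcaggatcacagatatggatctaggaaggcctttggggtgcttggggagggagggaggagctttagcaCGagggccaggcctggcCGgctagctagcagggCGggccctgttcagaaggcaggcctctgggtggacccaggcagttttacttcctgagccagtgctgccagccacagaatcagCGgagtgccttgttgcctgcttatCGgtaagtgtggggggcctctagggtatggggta
The Tbk1 window holds 39 CG dinucleotides at a GC content of 72.3%, more than in 96.2% of the 33469 windows in the table. Enpp3, likewise highest in SEN, has 5 CG dinucleotides at 41.3% GC. Sting1 has 7 at 46.7% GC and Trex1 has 6 at 58.7%, beside a median of 7 CG dinucleotides (quartiles 3 and 19) and of 51.7% GC over all windows. The letters GAAANNGAA, the core of the interferon-stimulated response element, and TTCNNNGAA, a STAT element, were searched on both strands. Neither occurred in any of the 7 windows, which says only that these letters are not in them. Of all windows, 9.713% held the first and 8.874% the second. Tbk1 and Enpp3 share SEN as the highest group but differ in the order of NC and BNPMT. The Tbk1 window lay above the upper quartile in CG dinucleotides, and the Enpp3 window between the quartiles.

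Library totals ran from 31206834 to 41971877 counts, and CPM below are counts scaled to these totals. Changes are log2 changes ± SE from edgeR's quasi-likelihood test with TMM scaling, and a gene was called at a Benjamini-Hochberg adjusted p under 0.05 over 14956 tested genes. The mean TMM factor was 1.097 in NC, against 0.802 in SEN and 1.136 in BNPMT, so a gene with equal CPM in SEN and NC has a positive TMM log2 change. Scaling by total counts alone moved the median of all tested genes from -0.01 to -0.46 in SEN against NC, from 0.02 to 0.52 in BNPMT against SEN and from 0.00 to 0.06 in BNPMT against NC. Log2 changes under total counts are therefore given beside the TMM values where they differ by over 1.5 times or change a call. The cartilage and nucleus pulposus markers in the table summed to 5258 to 5530 CPM in NC, against 7243 to 7372 in SEN and 2437 to 2658 in BNPMT, a sum led by Col2a1 and Acan. Of the 8 tested, 6 were higher and 2 lower in SEN against NC, the latter being Pax1 (log2 change -0.90 ± 0.06, or -1.36 with total counts) and Foxf1 (-0.38 ± 0.08, or -0.84). Tbxt, Krt18 and Krt19 were under 1 CPM in every group. In bulk RNA, fewer cells of a type and less RNA per cell cannot be told apart.

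**Figure D1:**
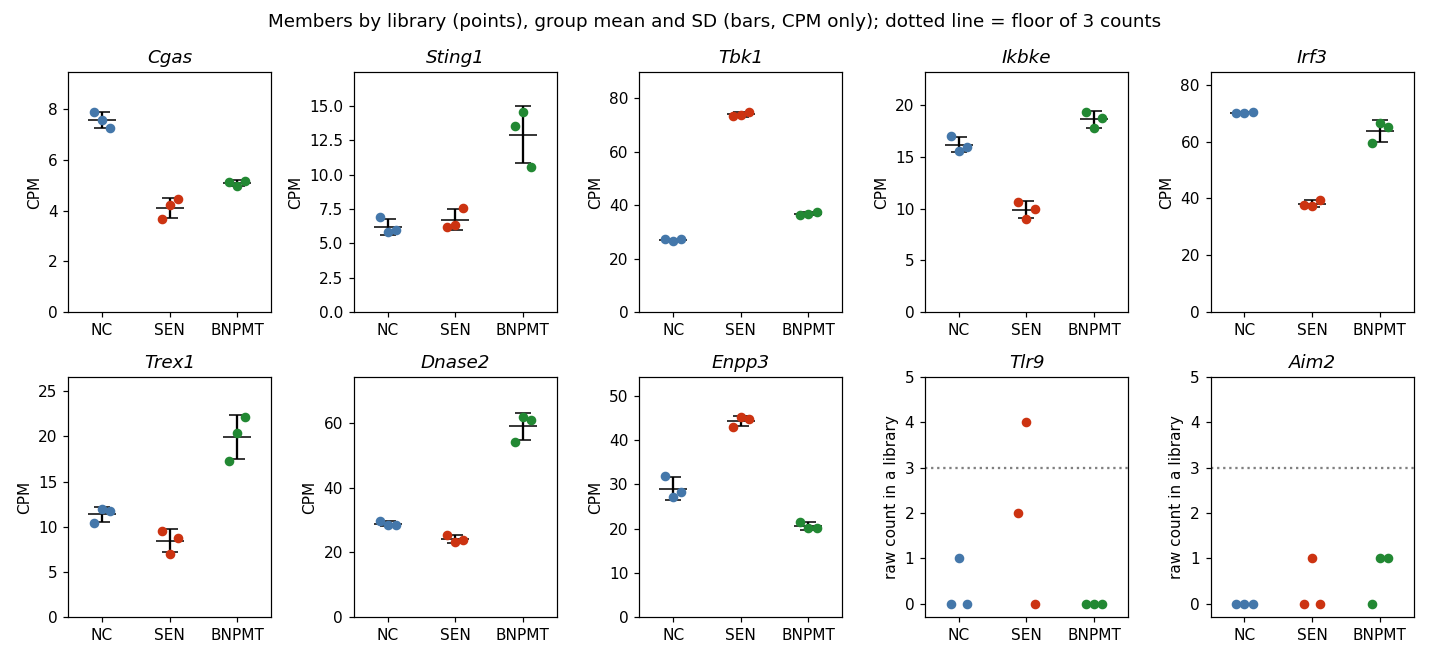
Level of each of the 10 genes in each library, as CPM for the 8 tested genes and as raw counts for Tlr9 and Aim2. Points are libraries, bars are group mean and SD (CPM panels only), and the dotted line is the floor of 3 counts. Tbk1 and Enpp3 peak in SEN, whereas Sting1, Trex1, Dnase2 and Ikbke are highest in all 3 BNPMT libraries. Of these, Ikbke did not pass in BNPMT against NC.

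In SEN against NC, the kinase gene Tbk1 and the ecto-enzyme gene Enpp3 rose most clearly, and the sensor gene Cgas and the factor gene Irf3 fell. Of the 8 tested members, 4 were called higher (Tbk1, Enpp3, Sting1, Dnase2), 3 lower (Cgas, Irf3, Ikbke) and 1, Trex1, did not pass. Over all tested genes, 76.1% were called in this comparison, 37.6% higher and 38.5% lower, so a count of 7 in 8 lies near the background. The median log2 change of the 8 was 0.11, beside -0.01 for all tested genes. It was -0.34 beside -0.46 with total counts, and -0.25 beside -0.25 with the length correction, so its sign depends on the scaling. With total counts alone, 2 members were called higher and 5 lower, and over all genes 3667 were called higher in place of 5628.

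In BNPMT against SEN, Tbk1 and Enpp3 were lower, and the adaptor gene Sting1, both nuclease genes, Ikbke and Irf3 were higher. That made 5 members called higher, 2 lower and 1, Cgas, not passing. The background was 80.6% of tested genes called, 40.7% higher and 39.9% lower, and the median log2 change was 0.32 for the members and 0.02 for all tested genes. With total counts alone, 6 members were called higher and 2 lower, and over all genes 3857 were called lower in place of 5969.

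In BNPMT against NC, 4 members were higher (Sting1, Dnase2, Trex1, Tbk1), 3 lower (Cgas, Enpp3, Irf3) and 1, Ikbke, did not pass. The background was 52.8% of tested genes called, 26.3% higher and 26.5% lower, with medians of 0.27 for the members and 0.00 for all tested genes. Sting1, Trex1 and Dnase2 were called higher in BNPMT than in both other groups, 3 of 8 members where 17.0% of all tested genes were. Enpp3 alone was called lower than in both, where 16.5% of tested genes were. The 3 comparisons share libraries in pairs, so their calls are not independent of each other.

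**Figure D2:**
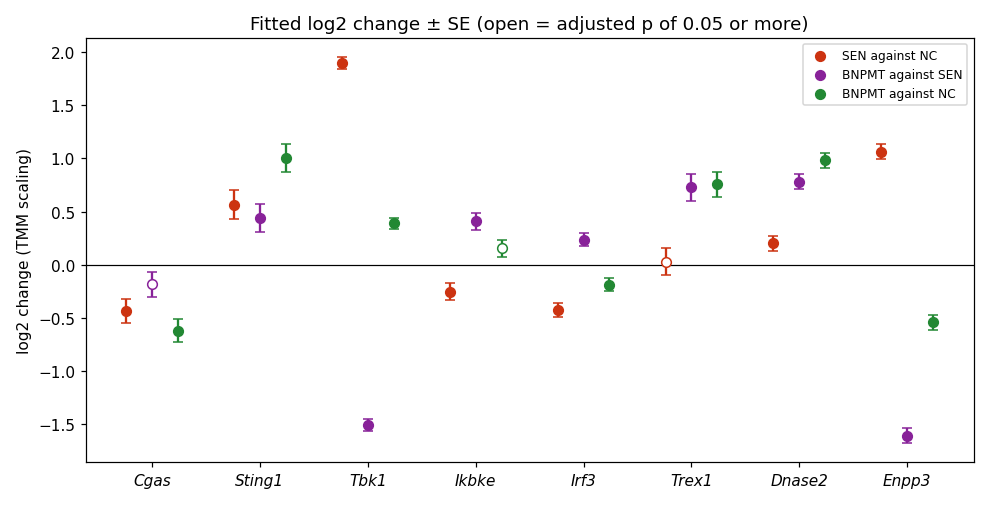
Log2 change of each tested member in the 3 comparisons, with TMM scaling. Points are the fitted changes, open where the adjusted p was 0.05 or more, and bars their SE. Tbk1 and Enpp3 stand at 1.90 and 1.06 in SEN against NC and at -1.51 and -1.61 in BNPMT against SEN, while Trex1 stands at 0.03 in SEN against NC.

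Cgas encodes the cytosolic sensor. Its level was 7.88, 7.56 and 7.26 CPM in the NC libraries, compared with 3.65, 4.20 and 4.44 in SEN and 5.14, 4.96 and 5.17 in BNPMT. All NC libraries lay above all BNPMT libraries, and these above all SEN libraries, with no overlap. Cgas fell in SEN against NC by 0.43 ± 0.11 on the log2 scale (adjusted p = 0.00311), and by 0.89 with total counts. It was also lower in BNPMT than in NC, with a log2 change of -0.62 ± 0.11 (adjusted p = 0.000396), which was -0.40 with the trend of each library with transcript length taken out (the length correction below).

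Between BNPMT and SEN the Cgas level depended on the scaling. TMM put its log2 change at -0.19 ± 0.12 (adjusted p = 0.153), and total counts at 0.32 (adjusted p = 0.0220), and over 21 alternatives the adjusted p ran from 0.0162 to 0.425. No direction is therefore given for it. The library with the fewest raw counts of Cgas, SEN 2, had 131, which is 43.7 times the floor of 3 counts. In RefSeq GRCr8 the span of Cgas overlaps Ddx43, which had 12, 21 and 7 counts in NC, SEN and BNPMT in all, and a pseudogene. Reads of overlapping genes cannot be told apart here, since the strand setting of the counting is not given in the sources used here.

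Tlr9 encodes the endosomal receptor for DNA rich in unmethylated CG. It had 0, 1 and 0 counts in the NC libraries, compared with 2, 4 and 0 in SEN and 0, 0 and 0 in BNPMT. Only 1 of the 9 libraries, SEN 2, passed the floor of 3 counts, which stands at 0.0715 to 0.0961 CPM depending on the library. The SEN sum of 6 counts over the NC sum of 1 was 6.68-fold, and its 95% interval reached from 0.811 to 307 for counting error alone, so no difference was detectable at this depth. The BNPMT sum of 0 allows a level of up to 0.0252 CPM over the group, again for counting error only, and the exact interval for BNPMT over SEN reached from 0 to 0.750.

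Without a filter on low counts, edgeR gave Tlr9 an adjusted p of 0.115 in SEN against NC, 0.0248 in BNPMT against SEN and 0.529 in BNPMT against NC. The 0.0248 rests on 6 counts in 2 SEN libraries, and the gene was not among those tested with the filter. The span of Tlr9 overlaps Rpl29, a ribosomal protein gene at 562 ± 4.76 CPM in NC, and 838 ± 54.2 in SEN and 747 ± 90.2 in BNPMT (SD, n = 3). Blood cell markers also had counts in SEN: Cd68 stood at 22.6 ± 1.81 CPM against 0.464 ± 0.298 in NC and 0.527 ± 0.147 in BNPMT. Itgam had 124 to 153 counts in each SEN library and 0 in the other 6, and the B cell receptor gene Cd79b 80 to 92 and 0. The 8 macrophage and leukocyte markers in the table had sums of 11.3 to 12.9 (NC), 31.4 to 34.7 (SEN) and 16.4 to 18.5 CPM (BNPMT). Of the 8, 2 were at 0 throughout NC, 1 throughout SEN and 3 throughout BNPMT. Of the 4 tested, 3 were higher and 1, Cd14, lower in SEN against NC. The 5 B cell and plasmacytoid markers had sums of 91.3 to 97.1 (NC), 53.6 to 56.9 (SEN) and 102 to 122 CPM (BNPMT), carried by Tcf4, with 1, 0 and 1 of them at 0 throughout the group. Of the 4 tested B cell and plasmacytoid markers, 3 were higher and 1, Tcf4, lower in SEN against NC. The 6 endothelial markers summed to 1.04 to 1.55, 4.95 to 5.51 and 0.981 to 1.51 CPM, with 2, 0 and 2 at 0 throughout. Among the 4 tested endothelial markers, 2 were higher, 0 lower and 2 did not pass in SEN against NC (2, 1 and 1 with total counts). The part of these cell type markers and of the overlap in the Tlr9 counts and in the other SEN results was not tested.

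Aim2 encodes the sensor that starts the inflammasome on cytosolic DNA. It had 0 counts in each NC library, 0, 1 and 0 in SEN and 0, 1 and 1 in BNPMT. No library reached the floor, and Aim2 was not detectable above it in any group at this depth. Its sums of 0, 1 and 2 counts put BNPMT over SEN at 1.77, between 0.0919 and 104 at 95% for counting error alone.

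Sting1 encodes STING, the adaptor downstream of cGAS. Its level was 6.90, 5.80 and 5.95 CPM in NC, against 6.20, 6.34 and 7.58 in SEN and 13.5, 14.6 and 10.6 in BNPMT. All BNPMT libraries lay above all others, and the NC and SEN libraries overlapped. Sting1 was higher in BNPMT than in NC by 1.003 ± 0.13 on the log2 scale (adjusted p = 4.72e-05) and than in SEN by 0.44 ± 0.13 (adjusted p = 0.00792), or by 0.94 with total counts.

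The Sting1 call in SEN against NC held in 17 of 21 alternatives and was lost in 4, those scaled by total counts. TMM put its log2 change at 0.57 ± 0.14 (adjusted p = 0.00216), against 0.34 with the length correction and 0.11 with total counts (adjusted p = 0.463). Over 21 alternatives the adjusted p ran from 8.54e-05 to 0.525.

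The ratio of Sting1 to Cgas, taken within each library from FPKM (CPM per kilobase of gene length) and so free of library scaling, was 2.47 ± 0.161 in NC, compared with 4.94 ± 0.334 in SEN and 7.65 ± 1.36 in BNPMT (SD, n = 3). The groups did not overlap, from 2.31 to 2.64, from 4.55 to 5.14 and from 6.16 to 8.85. These ratios are a description, and no test of them was made. They keep the trend of each library with transcript length, at implied lengths of 2040 bases for Sting1 and 6146 for Cgas.

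Tbk1 encodes the kinase that phosphorylates STING and IRF3. Its level was 27.2, 26.8 and 27.5 CPM in NC, and 73.4, 73.6 and 74.9 in SEN and 36.3, 36.7 and 37.5 in BNPMT. The groups lay far apart relative to their spread, with SEN highest and BNPMT between. Tbk1 rose in SEN against NC by a log2 change of 1.90 ± 0.05 (adjusted p = 1.32e-12). Relative to SEN, BNPMT had a Tbk1 log2 change of -1.51 ± 0.05 (adjusted p = 1.06e-11), and relative to NC one of 0.39 ± 0.05 (adjusted p = 6.78e-05). The change from SEN was -1.01 with total counts and -0.95 on log2(FPKM + 1), which also carries no TMM factor.

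Ikbke encodes IKK-epsilon, the kinase most closely related to TBK1, and it followed another order. Its level was 17.0, 15.6 and 15.9 CPM in NC, against 10.6, 9.04 and 9.98 in SEN and 19.3, 17.8 and 18.7 in BNPMT. The 3 SEN libraries were the lowest and the 3 BNPMT libraries the highest, with no overlap. Ikbke was lower in SEN than in NC by a log2 change of -0.25 ± 0.08 (adjusted p = 0.0148), and at -0.71 with total counts. That call was lost with DESeq2 (log2 change -0.19, adjusted p = 0.0561) and without SEN 2 (-0.20, adjusted p = 0.0575). Over 21 alternatives the adjusted p ran from 3.50e-06 to 0.0575. BNPMT exceeded SEN in Ikbke by 0.41 ± 0.08 on the log2 scale (adjusted p = 0.000518), or by 0.91 under total counts. In BNPMT against NC it was 0.15 ± 0.08 (adjusted p = 0.128). Total counts (0.20, adjusted p = 0.0490) and the length correction (0.28, adjusted p = 0.00976) brought that difference past the threshold, in a range of adjusted p from 0.00976 to 0.310. A lncRNA overlaps Ikbke in GRCr8.

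Within a library, the FPKM ratio of Tbk1 to Ikbke was 2.55 ± 0.106 in NC, compared with 11.4 ± 0.938 in SEN and 3.001 ± 0.146 in BNPMT (SD, n = 3). The SEN libraries, from 10.5 to 12.3, stood apart from both other groups, whose ranges of 2.43 to 2.62 and 2.84 to 3.13 did not meet. This ratio needs no library scaling, so the 2 kinase transcripts changed unequally in SEN whichever scaling is used.

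Irf3 encodes the transcription factor that TBK1 phosphorylates. Its level was 70.2, 70.1 and 70.4 CPM in NC, and 37.7, 37.3 and 39.5 in SEN and 59.4, 66.6 and 65.1 in BNPMT. SEN was lowest and NC highest, with no overlap between groups. Irf3 fell in SEN against NC by 0.43 ± 0.06 on the log2 scale (adjusted p = 2.50e-05), and by 0.88 with total counts. It was higher in BNPMT than in SEN by 0.24 ± 0.06 (adjusted p = 0.00315), or 0.74 with total counts. In BNPMT against NC it was lower, with a log2 change of -0.19 ± 0.06 (adjusted p = 0.0178). That call was lost with total counts (-0.14, adjusted p = 0.0577) and without NC 1 (-0.19, adjusted p = 0.0509), and the length correction gave -0.34, in a range of adjusted p from 3.06e-05 to 0.0577. Its span overlaps Bcl2l12 in GRCr8, a gene at 17.3 ± 0.978 CPM in NC, against 9.11 ± 0.351 in SEN and 19.5 ± 1.97 in BNPMT. The FPKM ratio of Tbk1 to Irf3 was 0.265 ± 0.00277 in NC, compared with 1.33 ± 0.0266 in SEN and 0.396 ± 0.0206 in BNPMT, again with no overlap.

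**Figure D3:**
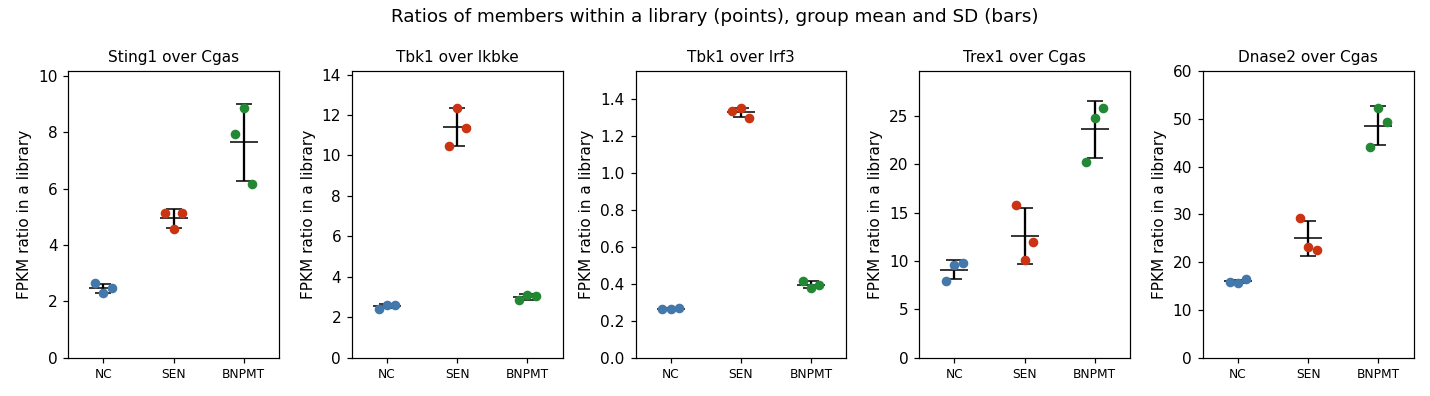
Ratios of FPKM between members within each library, which do not depend on library scaling. They keep the trend of each library with transcript length. The y axis is the ratio from 0 up, points are single libraries of NC, SEN and BNPMT, and bars are group mean and SD. The ratio of Tbk1 to Ikbke runs from 10.5 to 12.3 in SEN and from 2.84 to 3.13 in BNPMT, and the ratio of Sting1 to Cgas is highest in the BNPMT libraries.

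Trex1 encodes the main cytosolic exonuclease, whose loss lets DNA reach cGAS. Its level was 10.4, 11.98 and 11.8 CPM in NC, and 9.53, 7.05 and 8.79 in SEN and 17.2, 20.4 and 22.1 in BNPMT. BNPMT was highest and SEN lowest, with no overlap. Trex1 was higher in BNPMT than in SEN by 0.73 ± 0.12 on the log2 scale (adjusted p = 0.000102), or 1.23 with total counts. Over NC the difference was 0.75 ± 0.12 (adjusted p = 0.000195), or 0.40 with the length correction.

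For Trex1 in SEN against NC no direction held across settings. TMM put the log2 change at 0.03 ± 0.13 (adjusted p = 0.851). Total counts gave -0.43 (adjusted p = 0.00646), whereas the length correction gave -0.40 (adjusted p = 0.00154). Over 21 alternatives the adjusted p ran from 0.00154 to 0.997, and 10 of them gave the other sign. They included leaving out NC 1 (-0.045), SEN 1 (-0.081) or SEN 3 (-0.00068).

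Dnase2 encodes the acid endonuclease of lysosomes. Its level was 29.7, 28.3 and 28.4 CPM in NC, against 25.4, 23.3 and 23.8 in SEN and 54.1, 61.7 and 60.8 in BNPMT. Every BNPMT library lay above every NC library, and every NC library above every SEN library. Dnase2 was higher in BNPMT than in SEN by 0.78 ± 0.07 on the log2 scale (adjusted p = 2.42e-07), or 1.28 with total counts. Against NC it was higher by 0.98 ± 0.07 (adjusted p = 3.51e-07).

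In SEN against NC the CPM and TMM scales gave Dnase2 opposite directions. The log2 change was 0.20 ± 0.07 with TMM (adjusted p = 0.0244), a call that was lost without NC 2 (0.18, adjusted p = 0.0890), NC 3 (0.17, adjusted p = 0.0951) or SEN 1 (0.15, adjusted p = 0.112). Total counts gave -0.25 (adjusted p = 0.00440), whereas the length correction gave -0.10 (adjusted p = 0.105). Over 21 alternatives the adjusted p ran from 0.00245 to 0.140, so the direction in SEN depends on the scaling. Within a library, the FPKM ratio of Trex1 to Cgas was 9.09 ± 0.992 in NC, compared with 12.6 ± 2.88 in SEN and 23.6 ± 2.96 in BNPMT (SD, n = 3). That of Dnase2 to Cgas was 16.0 ± 0.365, 24.998 ± 3.72 and 48.6 ± 4.11. For both nuclease genes the BNPMT libraries lay above all others, and the SEN libraries above all NC libraries. These ratios keep the trend of each library with transcript length, and no ratio without it was computed. The implied lengths are 1020 bases for Trex1, 1464 for Dnase2 and 6146 for Cgas.

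Enpp3 encodes the ecto-enzyme that acts on nucleotides outside the cell. Its level was 31.9, 27.1 and 28.2 CPM in NC, and 43.0, 45.2 and 44.8 in SEN and 21.6, 20.1 and 20.1 in BNPMT. SEN was highest and BNPMT lowest, with no overlap. Enpp3 rose in SEN against NC by a log2 change of 1.06 ± 0.07 (adjusted p = 7.83e-09), or 0.61 with total counts. In BNPMT it was lower than in SEN, with a log2 change of -1.61 ± 0.07 (adjusted p = 1.14e-10), and lower than in NC, with -0.54 ± 0.07 (adjusted p = 4.41e-05). The former was -1.10 with total counts and -1.01 on log2(FPKM + 1). In GRCr8, 2 lncRNA genes overlap Enpp3. Its relative Enpp1, the better known cGAMP hydrolase, stood at 82.7 ± 0.230 CPM in NC, against 64.0 ± 3.54 in SEN and 75.5 ± 6.78 in BNPMT. The Enpp1 log2 change was 0.08 ± 0.07 in SEN against NC (adjusted p = 0.260) and -0.26 ± 0.07 in BNPMT against SEN (adjusted p = 0.00200). With total counts these became -0.37 and 0.24, so no direction is given for Enpp1.

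Compared per length, Irf3 was the most abundant member in NC at 34.3 ± 0.0984 FPKM, followed by Dnase2 at 19.7 ± 0.531 (SD, n = 3). Trex1 at 11.2 ± 0.841 and Enpp3 at 10.5 ± 0.912 followed, with overlapping libraries, and then came Tbk1 at 9.06 ± 0.120, Ikbke at 3.56 ± 0.161, Sting1 at 3.05 ± 0.291 and Cgas at 1.23 ± 0.0505. In SEN the order began with Tbk1 at 24.7 ± 0.278, ahead of Irf3 at 18.6 ± 0.576. Dnase2 at 16.5 ± 0.773 and Enpp3 at 16.0 ± 0.414 overlapped there, and Trex1 at 8.29 ± 1.25, Sting1 at 3.29 ± 0.371, Ikbke at 2.18 ± 0.176 and Cgas at 0.666 ± 0.0661 closed it. In BNPMT Dnase2 led at 40.2 ± 2.85, with Irf3 at 31.1 ± 1.86, Trex1 at 19.5 ± 2.42, Tbk1 at 12.3 ± 0.203, Enpp3 at 7.43 ± 0.301, Sting1 at 6.32 ± 1.01, Ikbke at 4.10 ± 0.174 and Cgas at 0.828 ± 0.0187. No neighbours among the 8 tested genes overlapped in BNPMT.

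The sensor Cgas was thus the lowest of the 8 per length in each group, at the 28.9th, 24.8th and 25.2nd percentile of tested genes in NC, SEN and BNPMT. Tbk1 stood at the 62.0th, 84.6th and 67.8th percentile and Dnase2 at the 78.0th, 78.9th and 87.2nd. The deposited FPKM values imply a length of 6146 bases for Cgas and 11239 for Aim2, and a longer length lowers FPKM at equal counts.

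**Figure D4:**
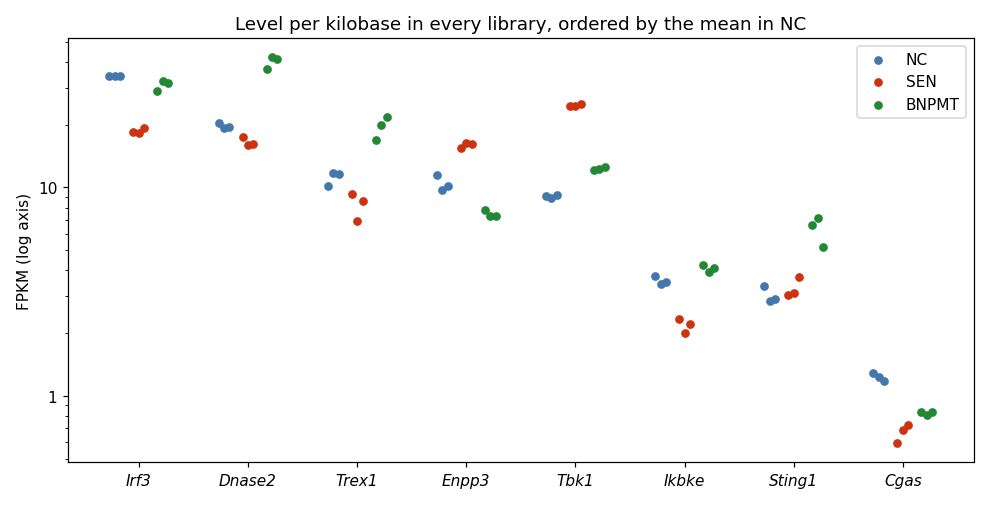
FPKM of the members in each group, on a log axis, with genes ordered by their NC mean. Points are the 3 libraries of each group. Cgas is the lowest of the 8 tested genes in NC, SEN and BNPMT, and the gene at the top is Irf3 in NC, Tbk1 in SEN and Dnase2 in BNPMT.

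Genes with placeholder names (such as LOC or RGD) were left out of the ranking by likeness. Among the other tested genes, the log2 CPM profile over the 9 libraries most like that of Cgas belonged to Heatr1 (Pearson r = 0.990), Ankrd27 (0.982) and Zfp469 (0.981). Heatr1 stood at 46.7 ± 1.81 CPM in NC, compared with 22.8 ± 2.91 in SEN and 28.5 ± 1.25 in BNPMT. For Sting1 they were Spns1 (0.978), Itga2b (0.964) and Snap91 (0.940), with Spns1 at 48.0 ± 1.53, 41.7 ± 1.43 and 65.8 ± 2.17 CPM. The points fall in 3 groups, so these correlations are a description without a test. Of all tested genes, 3.18% had a correlation over 0.9 in size with Cgas and 0.642% with Sting1.

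The other genes of the pathway were described through 6 lists of 98 genes, of which 94 were in the table and 78 were tested. In SEN against NC 28 of the 78 were higher, 29 lower and 21 did not pass, in BNPMT against SEN 39, 29 and 10, and in BNPMT against NC 29, 20 and 29. These shares are to be read against the 76.1%, 80.6% and 52.8% of all tested genes called.

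Of the 20 tested regulators of cGAS and STING, 7 were higher, 7 lower and 6 not passing in SEN against NC (median 0.02; with total counts 2 higher, 13 lower, median -0.43). Npc1, a lysosomal cholesterol transporter that also promotes STING turnover, rose from 82.8 ± 2.52 to 184 ± 14.2 CPM and stood at 88.2 ± 11.1 in BNPMT. Its log2 change was 1.60 ± 0.08 in SEN against NC (adjusted p = 4.08e-10) and -1.56 ± 0.08 in BNPMT against SEN (adjusted p = 4.49e-10). Lrrc8a, a subunit of the volume-regulated channel that carries cGAMP, was also highest in SEN, at 48.6 ± 2.09, 76.5 ± 5.17 and 40.6 ± 5.88 CPM, with log2 changes of 1.11 ± 0.09 and -1.42 ± 0.09 (0.65 and -0.91 with total counts). Unlike Npc1, it was lower in BNPMT than in NC, with a log2 change of -0.31 ± 0.09 (adjusted p = 0.00838), a call lost with the length correction (-0.10, adjusted p = 0.161). Zcchc3, a cofactor of cGAS, fell from 27.2 ± 1.28 to 4.76 ± 0.572 CPM and stood at 23.6 ± 1.89 in BNPMT, with log2 changes of -2.06 ± 0.10 and 1.81 ± 0.10. Trim32, a ubiquitin ligase of STING, went from 36.7 ± 1.501 to 7.77 ± 0.505 and 33.7 ± 2.74 CPM, with -1.79 ± 0.08 and 1.62 ± 0.08. In BNPMT against SEN 10 of the 20 were higher and 9 lower (median 0.20; 13 and 6 with total counts, median 0.71). In BNPMT against NC 5 were higher and 11 lower (median -0.17; 6 and 7 with total counts). Banf1, which competes with cGAS for DNA, was higher in BNPMT than in NC by 0.54 ± 0.08 (adjusted p = 0.000141), but by 0.19 with the length correction.

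Among 15 TBK1 scaffolds, adaptors and downstream factors, 9 were higher and 5 lower in SEN against NC (median 0.49; 6 and 6 with total counts, median 0.03). The scaffold genes Optn and Tbkbp1 rose with log2 changes of 1.05 ± 0.06 and 1.16 ± 0.08 (0.60 and 0.70 with total counts), and Optn went from 47.6 ± 1.28 to 72.2 ± 3.21 CPM. Mavs, the adaptor of RNA sensing, fell from 20.4 ± 1.29 to 8.16 ± 0.740 CPM and stood at 20.7 ± 0.706 in BNPMT. In BNPMT against SEN 5 were higher and 10 lower (median -0.47; 5 and 5 with total counts, median 0.04). Tbkbp1 was at -1.21 ± 0.08 and Mavs at 0.83 ± 0.09 in that comparison (-0.70 and 1.34 with total counts). In BNPMT against NC 4 were higher and 4 lower (median -0.03; 4 and 2 with total counts, median 0.02). Irf7, the interferon-induced relative of Irf3, went the other way from Irf3 in SEN: its level went from 2.92 ± 0.418 CPM up to 6.28 ± 0.614 (log2 change 1.56 ± 0.14, adjusted p = 1.35e-07) and stood at 5.80 ± 0.327 in BNPMT, 0.95 ± 0.13 above NC on the log2 scale.

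Of 10 other tested genes that remove or modify nucleic acids or nucleotides, 2 were higher and 4 lower in SEN against NC (median -0.07). With total counts 2 were higher and 8 lower (median -0.53). The list includes Adar, which edits RNA, with log2 changes of -1.55 ± 0.11 in SEN against NC and 1.27 ± 0.11 in BNPMT against SEN. Samhd1, a dNTP hydrolase, rose from 3.27 ± 0.501 to 12.3 ± 0.287 CPM (log2 change 2.36 ± 0.14) and stood at 2.35 ± 0.424 in BNPMT, a change of -2.90 ± 0.15 from SEN. Pld3, a lysosomal exonuclease, rose by 0.93 ± 0.06 and then differed by -0.77 ± 0.06, moves that were 0.48 and -0.26 with total counts. Exog, a mitochondrial nuclease, fell from 11.6 ± 0.517 to 2.09 ± 0.231 CPM and stood at 10.998 ± 0.472 in BNPMT. In BNPMT against SEN 7 of the 10 were higher, the direction also of Trex1 and Dnase2, and 2 lower (median 0.68). With total counts these were 8 and 2 (median 1.18). In BNPMT against NC 5 were higher and 2 lower (median 0.19; 5 and 1 with total counts). Rnaseh2b rose with them in BNPMT against SEN, by 1.33 ± 0.10, and Rnaseh2c in BNPMT against NC, by 0.83 ± 0.12 or 0.35 with the length correction.

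The partners of Tlr9 in endosomes were expressed although Tlr9 itself was near 0. Of 12 tested genes of endosomal receptor transport and signalling, 5 were higher and 4 lower in SEN against NC (median 0.07). In BNPMT against SEN 6 were higher and 5 lower (median 0.11), and in BNPMT against NC 5 and 1 (median 0.24). With total counts, 3 were higher and 8 lower in SEN against NC (median -0.38). Under the same scaling, 8 and 2 were so in BNPMT against SEN (median 0.61), and 6 and 1 in BNPMT against NC. Unc93b1, which carries these receptors to endosomes, stood at 17.8 ± 0.546 CPM in NC, and 12.96 ± 0.432 in SEN and 25.1 ± 0.749 in BNPMT. It was higher in BNPMT than in NC by 0.44 ± 0.07 (adjusted p = 0.000141) and than in SEN by 0.45 ± 0.07 (adjusted p = 3.92e-05), or by 0.95 with total counts. The adaptor gene Myd88 stood at 26.6 ± 1.12, 20.5 ± 0.0697 and 37.4 ± 1.76 CPM and was higher in BNPMT than in NC by 0.44 ± 0.07. Tlr3, the receptor for double-stranded RNA, fell in SEN, where 3.15 ± 1.145 CPM compared with 7.29 ± 0.384 in NC (log2 change -0.77 ± 0.20, adjusted p = 0.00312, and -1.22 with total counts), and stood at 8.80 ± 0.876 in BNPMT. Tlr7 had 1, 9 and 1 counts in NC, SEN and BNPMT in all and was near the floor as Tlr9 was.

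The inflammasome genes around Aim2 were partly at the floor too. Casp1 had 1, 0 and 4 counts and Il1b 0, 0 and 1 in NC, SEN and BNPMT in all. Of the 5 tested, none was higher and 3 were lower in SEN against NC (median -0.70; 0 and 5 with total counts, median -1.15). In BNPMT against SEN 4 were higher (median 1.13), and 5 with total counts. In BNPMT against NC 2 were higher and 1 lower (median 0.29). Gsdmd, the pore-forming effector, fell from 33.4 ± 1.02 to 15.1 ± 0.199 CPM and stood at 42.4 ± 1.86 in BNPMT, with log2 changes of -0.70 ± 0.07 and 0.99 ± 0.07 (-1.15 and 1.49 with total counts). Pycard, the adaptor ASC, had 67 to 71 counts in the NC libraries, and 21 to 43 in SEN and 161 to 234 in BNPMT. Its log2 change was -0.59 ± 0.30 in SEN against NC (adjusted p = 0.0885; -1.04 and 0.00524 with total counts), 2.03 ± 0.27 in BNPMT against SEN (adjusted p = 1.07e-05) and 1.45 ± 0.24 in BNPMT against NC (adjusted p = 0.000290).

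Of 16 tested genes of the interferon response, 5 were higher and 6 lower in SEN against NC (median -0.12). In BNPMT against SEN 7 were higher and 3 lower (median 0.08), and in BNPMT against NC 8 and 1 (median 0.31). With total counts, 5 were higher and 7 lower in SEN against NC (median -0.57). Under the same scaling, 7 were higher and 2 lower in BNPMT against SEN (median 0.58). The interferon-stimulated genes Ifit1, Rsad2, Mx1, Mx2, Oas1a and Oasl had too few counts for a test. Ifit1 had 10, 0 and 19 counts in NC, SEN and BNPMT in all, and Mx1 2, 12 and 6. Cxcl10, a chemokine that interferon and NF-kappaB induce, stood at 0.252 ± 0.147 CPM in NC, against 75.02 ± 3.88 in SEN and 0.656 ± 0.249 in BNPMT. Its log2 change was 8.63 ± 0.19 in SEN against NC (adjusted p = 9.95e-14) and -7.37 ± 0.17 in BNPMT against SEN (adjusted p = 1.26e-13). Irf1 rose with it, from 9.80 ± 0.815 to 30.2 ± 1.63 CPM, and stood at 16.5 ± 0.301 in BNPMT. Isg15, Usp18 and Ifi44 were the other genes called higher in SEN. Isg15 had only 8, 31 and 41 counts in NC, SEN and BNPMT in all, and Usp18 23, 57 and 67. Ifi44 stood at 2.67 ± 0.336, 3.75 ± 0.425 and 4.27 ± 0.226 CPM. The interferon-stimulated gene Ifit2, the signalling factor gene Stat2 and the receptor gene Ifnar1 went the other way in SEN. Ifit2 fell from 23.0 ± 0.853 to 3.16 ± 0.443 CPM (log2 change -2.41 ± 0.10) and stood at 15.3 ± 0.799 in BNPMT. Stat2 and Ifnar1 had log2 changes of -0.99 ± 0.08 and -0.72 ± 0.05 (-1.44 and -1.17 with total counts). No row was found in the count table for Ifnb1, the interferon gene that IRF3 switches on, so it was not analysed here.

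**Figure D5:**
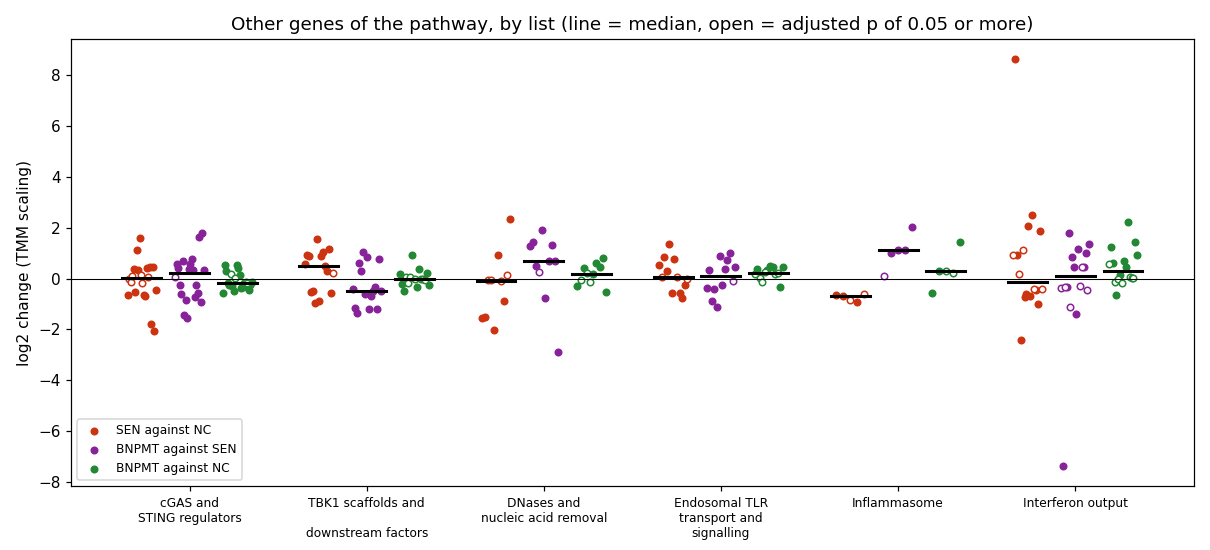
Log2 changes (TMM scaling) of the other tested pathway genes in 6 lists. Each point is a gene, open where the adjusted p was 0.05 or more, the horizontal line is the list's median, and colours give the comparison. Cxcl10 stands apart at 8.63 in SEN against NC and -7.37 in BNPMT against SEN, while the list medians lie between -0.70 and 1.13.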

How the data were processed

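Poly(A) RNA of 9 libraries (3 per group) was sequenced. Per the submitters' processing notes, fastp, HISAT2, HTSeq and the build mRatBN7.2 were used, with no versions or roles; for the annotation and strand setting, not given in the sources used here, nothing was assumed. The authors deposited whole-number counts per gene (22324 genes) and FPKM values per library, which equal the count over gene length and total count. From these, CPM per library total was computed in R 4.3.3. Genes kept by filterByExpr (14956) were tested with edgeR 4.0.16 (glmQLFit, glmQLFTest, TMM factors, 1 model with 3 groups, Benjamini-Hochberg over all tested genes, threshold 0.05). A member was near the floor if that filter dropped it or a group mean was under 10 counts; the floor was 3 counts, and intervals are exact binomial at 95%, for counting error only. Likeness to Cgas and Sting1 used a prior count of 2, and genes with placeholder names were not ranked.

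Replicate libraries differed by more than sampling noise (chi-square per degree of freedom 3.51 to 33.5 between replicates). The highest values were those of BNPMT 1 (33.5 and 28.1) and SEN 1 (17.7 and 14.1) with their replicates. All other pairs lay between 3.51 and 6.94. Alternatives were DESeq2 1.42.0, other scalings and filters, limma 3.58.1 on log2(FPKM + 1) and log2(FPKM + 0.1), a loess length correction, the replicate block, and left-out libraries.

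The named genes were all members, up to 3 genes per pathway list, direction and comparison with the smallest adjusted p, 11 genes chosen whatever their values, of which Ifnb1 was not analysed here, and the 3 genes most like Cgas and Sting1 each. Only some of the genes per list are printed, picked after their values were seen. Members and lists were chosen with earlier results of these data known. Promoters are RefSeq's, in GRCr8, and gene overlaps come from its gene table; no coordinate was converted between builds. Smooth muscle markers, the last marker list, summed to 4750 to 4796 CPM (NC), 1496 to 1673 (SEN) and 2702 to 2936 (BNPMT).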

Additional observations from a re-analysis of the deposited data

How the results depend on the processing

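Across 21 alternatives and 24 member comparisons, 470 of 504 values kept their direction and side of the threshold, 12 lost the call, 2 gained it and 20 changed sign. The sign changes were limited to 3 comparisons. Trex1 in SEN against NC was -0.43 with total counts, -0.030 with no filter, -0.39 on log2(FPKM + 1), -0.43 on log2(FPKM + 0.1) with and without the filter, -0.40 with the length trend taken out and -0.081 without SEN 1 and BNPMT 1. Leaving out 1 library moved it from -0.081 to 0.13. Dnase2 in SEN against NC was -0.25, -0.24, -0.25, -0.25 and -0.10 under total counts, the 3 FPKM settings and the length correction. Cgas in BNPMT against SEN was 0.32, 0.13, 0.28, 0.28 and 0.21 under the same 5. In SEN against NC, genes called higher numbered 3667 with total counts, 3651 on log2(FPKM + 1) and 3673 on log2(FPKM + 0.1), against 5628, and members called were 2 higher and 5 lower under total counts and all 3 FPKM settings. In BNPMT against SEN, genes called lower numbered 3857, 3782 and 3829 under those settings, against 5969. FPKM carries no TMM factor, so these settings share the scaling by total counts. Leaving out 1 library, or SEN 1 with BNPMT 1, kept the genes called between 11070 and 11928 in SEN against NC, 11758 and 12299 in BNPMT against SEN, and 6537 and 9045 in BNPMT against NC. With the replicate block, 11143, 11842 and 7348 genes were called in the 3 comparisons, and 7 of 8 members in each, with no member's call changed. Over 9 same-number pairs the correlation of deviations from the group mean ran from -0.24 (SEN 1 with BNPMT 1) to 0.06. Over different-number pairs it ran from -0.084 to 0.157. With 3 libraries a group, these values cannot decide whether replicate numbers pair the libraries. Depth limits Tlr9 and Aim2, for which a few counts are all that was read.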
